A study of Mus musculus with 21 samples.

Results

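The 10 genes described here encode sensors of nucleic acids and the proteins that pass their signal on. They were picked by name, as the table rows of the symbols Tlr2, Tlr3, Tlr7, Tlr9, Myd88, Mb21d1 (the older symbol of cGAS), Tmem173 (STING), Tbk1, Irf3 and Aim2. Each symbol matched 1 row, which gives 10 of the 41128 gene symbols in the table. RNA was sequenced from the striatum of mice 3 weeks after injection of an adeno-associated virus (AAV) there, in 21 libraries that fall into 2 sets. Set A held 3 libraries labelled WT, 3 labelled Cas9 and 3 labelled GCas9, and set B held 4 labelled GFP, 4 labelled Cas9 and 4 labelled GCas9. Titles numbered in 2 separate series and a different scaling by the authors mark the sets, so no level was set against one from the other set.

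All mice were labelled as wild type, and the names Cas9, GCas9 and GFP stand for the injected virus. Cas9 cuts DNA where a guide RNA directs it, GFP is a fluorescent protein used as a control cargo, and the label GCas9 is not spelled out, though the study is known for a Cas9 joined to a part of the cell cycle protein Geminin. The labels place the WT libraries under the same injection protocol and do not say whether those mice received a virus. WT against nuclease therefore cannot be told apart from no virus against virus, whereas in set B every group is named for a virus. The age is given as 3 months in one place and as 3 weeks in another. The promoter that drove the nuclease, the guide RNA, the capsid and the dose are not given in the sources used here. Nothing in the labels says that the replicates were separate animals, so the p-values measure the spread between these libraries, which may be technical in part.

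Toll-like receptors are membrane proteins of innate immunity. TLR3, TLR7 and TLR9 sit in endosomes and bind RNA duplexes, RNA strands and DNA with unmethylated CpG sites, while TLR2 sits at the cell surface and is best known for microbial lipoproteins. TLR2, TLR7 and TLR9 signal through the adaptor MYD88, whereas TLR3 uses another adaptor. In the cytosol, cGAS binds DNA and makes a cyclic dinucleotide that activates STING, which recruits the kinase TBK1, which phosphorylates the transcription factor IRF3, and AIM2 binds cytosolic DNA and assembles an inflammasome. In the brain these receptors are known mainly from microglia and other myeloid cells, and the genome of AAV is DNA that TLR9 is known to detect.

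The sequences just upstream of the transcription starts of 5 of the genes are shown. All 5, Tlr2, Tlr3, Tlr9, Myd88 and Irf3, had higher mean levels in the nuclease libraries of set A than in WT. So did Tlr7, Mb21d1, Tmem173 and Aim2, which are not shown, and a link between motifs and levels was not tested. The log2 difference of Irf3 from WT was 0.25 for Cas9 and 0.016 for GCas9, the latter -0.069 without GCas9 replicate 3. Irf3 was the only gene of the 10 whose Cas9 libraries lay above every control library in both sets. Over all genes tested, 10.7% lay wholly above WT in Cas9 of set A and 2.63% wholly above GFP in Cas9 of set B. The share that did both was not counted. The sequences are the RefSeq promoters on GRCm38.p6, each the 250 bases before the start, 5′ to 3′ on the strand of the gene. Capitals mark matches, on either strand, to the interferon-stimulated response element (ISRE; GAAA, any 2 bases, then GAAA), the gamma-activated site (GAS, TTCNNNGAA), the core of the PU.1 site (GAGGAA) and the NF-kB site.
Tlr2 promoter, chr3:83841609-83841858, minus strand: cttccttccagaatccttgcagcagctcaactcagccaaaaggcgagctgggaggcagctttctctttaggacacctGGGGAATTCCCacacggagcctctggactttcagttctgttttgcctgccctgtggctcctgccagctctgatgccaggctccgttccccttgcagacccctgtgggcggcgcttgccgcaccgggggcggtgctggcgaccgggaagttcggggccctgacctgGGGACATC
Tlr3 promoter, chr8:45410381-45410630, minus strand: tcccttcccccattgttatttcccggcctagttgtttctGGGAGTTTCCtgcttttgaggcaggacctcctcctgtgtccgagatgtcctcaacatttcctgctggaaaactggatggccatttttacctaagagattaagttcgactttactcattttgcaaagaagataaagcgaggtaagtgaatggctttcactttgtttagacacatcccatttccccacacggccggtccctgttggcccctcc
Tlr9 promoter, chr9:106222348-106222597, plus strand: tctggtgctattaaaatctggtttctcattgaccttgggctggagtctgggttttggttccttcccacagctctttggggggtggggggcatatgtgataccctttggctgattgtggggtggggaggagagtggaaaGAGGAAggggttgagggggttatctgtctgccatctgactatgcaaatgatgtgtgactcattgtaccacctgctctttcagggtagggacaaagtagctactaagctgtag
Myd88 promoter, chr9:119340019-119340268, minus strand: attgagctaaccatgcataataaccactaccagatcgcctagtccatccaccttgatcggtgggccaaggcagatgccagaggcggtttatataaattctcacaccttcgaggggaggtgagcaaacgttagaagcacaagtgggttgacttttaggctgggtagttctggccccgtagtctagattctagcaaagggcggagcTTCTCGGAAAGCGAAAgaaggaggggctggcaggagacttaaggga
Irf3 promoter, chr7:44997398-44997647, plus strand: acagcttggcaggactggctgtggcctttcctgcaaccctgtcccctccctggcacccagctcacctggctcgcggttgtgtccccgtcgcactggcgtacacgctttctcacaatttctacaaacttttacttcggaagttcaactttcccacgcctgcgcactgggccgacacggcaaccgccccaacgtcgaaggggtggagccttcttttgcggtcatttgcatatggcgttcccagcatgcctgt

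The search window ran from 250 bases before to 50 bases after the start. The Tlr2 promoter held NF-kB matches that begin 173, 172 and 8 bases before the start, of which the first and second overlap and the last runs past the stretch shown. Tlr3 held 1 NF-kB match, 211 bases before the start. Tlr9 held a PU.1 core 112 bases before the start and another 12 bases after it, outside the stretch shown. Myd88 held a GAS match 46 bases and an ISRE match 40 bases before the start, which overlap each other, and Irf3 held none of the 4 motifs. Among 32851 mouse promoters of the same length, 8.46% held an NF-kB match, 28.3% a PU.1 core, 8.30% a GAS match and 3.44% an ISRE match. A match describes letters only and is not a measured binding site. Of the other genes, Aim2 held 2 PU.1 cores, beginning 140 and 113 bases before its start, and neither Mb21d1 nor Tbk1 held a match.

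Reads on genes numbered 20.34 to 28.05 M for set A libraries and 6.09 to 11.07 M for those of set B. Within set B the Cas9 libraries (6.09 to 7.69 M) were shallower than the GFP (7.89 to 9.75 M) and the GCas9 libraries (7.81 to 11.07 M). The 10 markers of medium spiny neurons, the main cell type of the striatum, were detected in both sets, with summed normalized counts of 232168 to 293242 (set A) and 95026 to 121318 (set B). A normalized count is the read count of a gene divided by the size factor of its library. By marker transcripts, 3 libraries stood apart. GCas9 replicate 3 of set A carried the highest sum of 8 B and plasma cell markers (45675, against 487 to 635 in WT) and of 16 transcripts that are induced downstream of the sensors (34822, against 3035 to 3239 in WT). Cas9 replicate 1 of set A had a choroid plexus marker sum of 295301, against 777 to 1043 in WT, and Cas9 replicate 1 of set B had 10980.4, against 200.2 to 348 in GFP. Some printed within-set differences of the 10 genes turned, or moved by over 1.5 times, when any of these libraries was left out. Each is given with that value, for set B mostly as a count. The lists are given without GCas9 replicate 3 where they are first counted.

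In set A, most of the sensors had higher levels in Cas9 and GCas9 libraries than in WT, with Tlr2, Tlr7 and Tlr9 furthest apart and the downstream kinase Tbk1 and factor Irf3 nearly level. No gene of the 10 passed the threshold of an adjusted p under 0.05 in any of the 4 comparisons of set A or the 4 of set B with limma, and edgeR called none either. DESeq2 called 1 of the 10, Tlr2, in GCas9 against WT (beside 1.37% of all genes) and in Cas9 and GCas9 together against WT (beside 1.78%), and none of them in the other 6 comparisons. In GCas9 against Cas9 of set A it gave no adjusted p for Tlr2, Tlr7, Tlr9, Myd88, Mb21d1, Tmem173 and Aim2, which therefore could not be called. The same held in Cas9 against GFP for Tlr2, Tlr7, Myd88, Tmem173, Irf3 and Aim2. Over all 15924 genes tested in set A, limma called 0.00628% in each comparison with WT, which is the single gene Gpnmb, and 0% in GCas9 against Cas9. In set B it called 0% of 15428 genes in all 4 comparisons. All 10 genes were tested in set A, and 8 in set B, where Tlr9 and Mb21d1 had mean normalized counts below 10. Values come from whole tissue, so more cells of a type and more RNA per cell cannot be told apart.

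**Figure D1:**
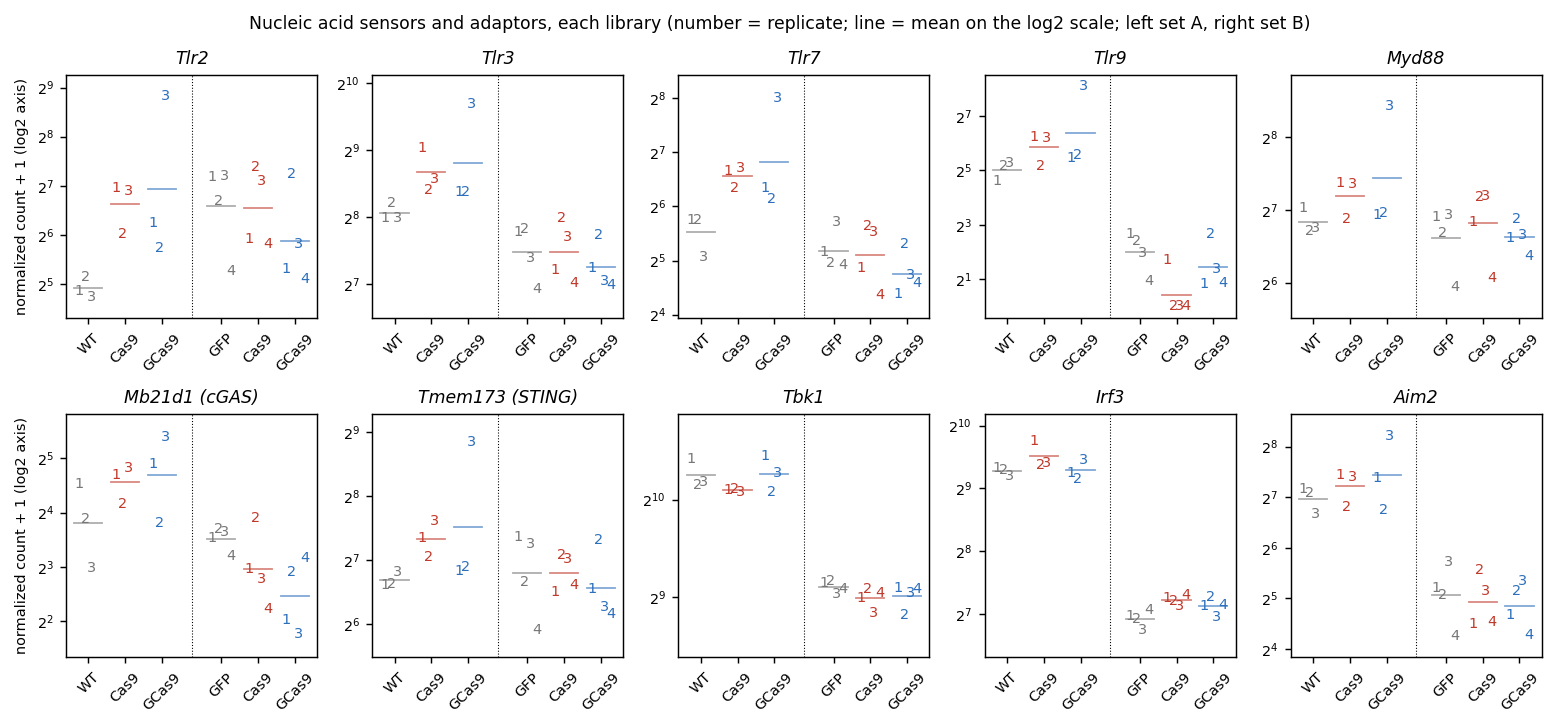
Normalized count plus 1 on a log2 axis (vertical) for each of the 10 genes in every library by group (horizontal), with set A left and set B right of the dotted line; each digit is the replicate number of a library and each line the mean on the log2 scale. In set A, GCas9 replicate 3 is the highest library for Tlr2 (455), Tlr3 (824), Tlr7 (256), Tlr9 (271), Myd88 (344), Mb21d1 (40.7), Tmem173 (460.3) and Aim2 (296), whereas Tbk1 and Irf3 show no such library.

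Tlr2 (chromosome 3, 83836272 to 83841767, minus strand, protein coding) had the widest spread of the 4 receptors in set A. Its normalized counts in set A were 27.9, 34.5 and 25.7 in WT, 124, 64.1 and 117 in Cas9 and 74.8, 51.9 and 455 in GCas9. Every nuclease library was above every WT library. On the log2(normalized count + 1) scale the difference from WT was 1.71 ± 0.69 for Cas9 (standard error of the fit, n = 3 against 3, limma adjusted p = 0.41) and 2.02 ± 0.69 for GCas9 (adjusted p = 0.72). With both nucleases together it was 1.87 ± 0.60 (adjusted p = 0.43), larger than the change of 98.1% of all genes tested. DESeq2 gave 2.72 for GCas9 (adjusted p = 0.0167) and 2.26 for both together (adjusted p = 0.0242), where edgeR gave adjusted p = 0.51 and 0.42. Without GCas9 replicate 3, an alternative chosen after seeing the data, DESeq2 gave 1.11 for GCas9, which no longer passed (adjusted p = 0.73), and 1.45 for both together, which did (adjusted p = 0.0023). Without GCas9 replicate 3, the limma difference for GCas9 was 1.07 ± 0.32 (adjusted p = 0.999).

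In set B, Tlr2 read 144, 102, 147 and 37.3 in GFP, 59.8, 167, 136 and 55.3 in Cas9 and 38.4, 151, 55.4 and 33.5 in GCas9. High and low libraries occurred in all 3 groups, and the ranges overlapped throughout. Cas9 differed from GFP by -0.026 ± 0.52 (n = 4 against 4, limma adjusted p = 0.997) and GCas9 by -0.72 ± 0.52 (adjusted p = 0.83).

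Tlr3 (chromosome 8, 45395665 to 45411080, minus strand), the endosomal receptor for RNA duplexes, varied less. It read 254, 296 and 254 in WT, 523, 336 and 378 in Cas9 and 332, 329.6 and 824 in GCas9. No WT library reached a nuclease library. The differences from WT were 0.60 ± 0.33 for Cas9 (limma adjusted p = 0.48) and 0.74 ± 0.33 for GCas9 (adjusted p = 0.72), and without GCas9 replicate 3 the latter was 0.31 ± 0.18. In set B Tlr3 read 218, 225, 168 and 121 in GFP, 148, 253, 208 and 129 in Cas9 and 150.5, 211, 132 and 127 in GCas9, with overlap between all groups. There Cas9 differed from GFP by 0.0028 ± 0.24 and GCas9 by -0.23 ± 0.24.

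Tlr7 (chromosome X, 167304929 to 167330558, minus strand) encodes the endosomal receptor for RNA strands. Its counts were 52.9, 52.6 and 32.6 in WT, 99.8, 79.9 and 103 in Cas9 and 79.6, 69.2 and 256 in GCas9. Groups again did not overlap with WT. Cas9 was above WT by 1.04 ± 0.45 (limma adjusted p = 0.42) and GCas9 by 1.30 ± 0.45 (adjusted p = 0.72), or by 0.71 ± 0.25 without GCas9 replicate 3. The set B counts were 34.7, 29.9, 51.5 and 29.1 in GFP, 28.2, 48.6, 44.9 and 19.6 in Cas9 and 20.0, 38.8, 25.7 and 23.1 in GCas9. These ranges overlapped, and the differences from GFP were -0.09 ± 0.31 for Cas9 and -0.43 ± 0.31 for GCas9.

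Tlr9 (chromosome 9, 106222598 to 106226883, plus strand), the endosomal receptor for CpG DNA, was read at 23.1, 34.5 and 37.6 in WT, 73.8, 34.5 and 72.8 in Cas9 and 43.1, 46.5 and 271 in GCas9. Cas9 replicate 2 lay within the WT range, while all 3 GCas9 libraries lay above it. The limma differences from WT were 0.86 ± 0.65 for Cas9 (adjusted p = 0.59) and 1.37 ± 0.65 for GCas9 (adjusted p = 0.73). Without GCas9 replicate 3 the GCas9 value was 0.51 ± 0.37. In set B Tlr9 was close to the limit of detection, with 14 reads over the 4 GFP libraries, 2 over the 4 Cas9 libraries and 9 over the 4 GCas9 libraries. The normalized counts were 5.26, 4.28, 2.86 and 0.910 in GFP, 2.26, 0, 0 and 0 in Cas9 and 0.768, 5.38, 1.61 and 0.796 in GCas9. Each library thus held 0 to 5 reads of Tlr9, and the Cas9 libraries were also the shallowest. With the filter on low values lifted, Cas9 differed from GFP by -1.56 ± 0.54 (limma adjusted p = 0.87) and GCas9 by -0.55 ± 0.54 (adjusted p = 0.87).

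Myd88 (chromosome 9, 119335934 to 119341411, minus strand) encodes the adaptor that joins Toll-like receptors to their kinases. Set A counts were 129.9, 104 and 107 in WT, 164, 116 and 164 in Cas9 and 122, 124 and 344 in GCas9. Cas9 replicate 2 and GCas9 replicates 1 and 2 lay within the WT range. Differences from WT were 0.37 ± 0.37 for Cas9 (limma adjusted p = 0.69) and 0.61 ± 0.37 for GCas9 (adjusted p = 0.76), the latter 0.12 ± 0.19 without GCas9 replicate 3. In set B Myd88 read 119, 103, 121 and 61.0 in GFP, 114, 145, 146 and 66.3 in Cas9 and 97.5, 117, 100.3 and 82.0 in GCas9. All groups overlapped, and Cas9 differed from GFP by 0.21 ± 0.26 and GCas9 by 0.016 ± 0.26. The exons of Myd88 share 290 bases, 11.3% of their length, with Acaa1a on the opposite strand (mean normalized count 1811 in set A), and whether the authors counted by strand is not given in the sources used here.

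Tmem173 encodes STING, the adaptor of cytosolic DNA sensing at the endoplasmic reticulum. In set A it read 96.2, 97.4 and 112 in WT, 161, 131 and 194 in Cas9 and 112, 118 and 460.3 in GCas9. The lowest GCas9 library (112.2) was only just above the highest WT library (111.7), so that the groups did not overlap by a narrow margin. Cas9 was above WT by 0.65 ± 0.47 (limma adjusted p = 0.57) and GCas9 by 0.84 ± 0.47 (adjusted p = 0.75), but by 0.18 ± 0.18 without GCas9 replicate 3. Set B counts were 163, 100.04, 151 and 59.1 in GFP, 89.2, 135, 129 and 97.0 in Cas9 and 92.1, 157, 76.2 and 70.1 in GCas9. The lowest and the highest of the 12 libraries were both GFP libraries, and the differences from GFP were 0.011 ± 0.31 for Cas9 and -0.23 ± 0.31 for GCas9.

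Mb21d1 (chromosome 9, 78430526 to 78443237, minus strand), the gene of the DNA sensor cGAS, had the fewest reads of the 10 genes in set A. It read 22.1, 13.8 and 6.92 in WT, 25.0, 16.8 and 27.3 in Cas9 and 28.8, 12.97 and 40.7 in GCas9, so the groups overlapped. The differences from WT were 0.76 ± 0.51 for Cas9 (limma adjusted p = 0.54) and 0.89 ± 0.51 for GCas9 (adjusted p = 0.75), the latter 0.55 ± 0.53 without GCas9 replicate 3. In set B it read 10.52, 12.0, 11.4 and 8.19 in GFP, 6.78, 13.9, 5.90 and 3.68 in Cas9 and 3.07, 6.46, 2.41 and 7.96 in GCas9. All 4 GCas9 libraries were below all 4 GFP libraries, on 23 reads against 45, by a narrow margin. The highest GCas9 library (replicate 4) had 7.96 on 10 reads, and the lowest GFP library (replicate 4) 8.19 on 9 reads. Of the genes that passed the filter, which left Mb21d1 out, 4.16% were without overlap in GCas9 against GFP, in either direction. With the filter on low values lifted, the Mb21d1 difference of GCas9 from GFP was -1.05 ± 0.46 (limma adjusted p = 0.87).

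Aim2 (chromosome 1, 173350879 to 173466040, plus strand) encodes the DNA sensor of an inflammasome. Its set A counts were 141, 135 and 101 in WT, 174, 111 and 169 in Cas9 and 165, 107 and 296 in GCas9. Replicate 2 of Cas9 and of GCas9 lay within the WT range. The differences were 0.25 ± 0.34 for Cas9 (limma adjusted p = 0.78), which was 0.14 ± 0.39 without Cas9 replicate 1, and 0.48 ± 0.34 for GCas9 (adjusted p = 0.79), the latter 0.09 ± 0.27 without GCas9 replicate 3. In set B Aim2 read 35.8, 32.5, 51.5 and 18.2 in GFP, 21.5, 45.9, 34.2 and 22.1 in Cas9 and 24.6, 34.5, 39.3 and 18.3 in GCas9. The groups overlapped, with differences from GFP of -0.13 ± 0.34 for Cas9 and -0.20 ± 0.34 for GCas9.

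Tbk1 (chromosome 10, 121546455 to 121586787, minus strand), the kinase on which the STING and TLR3 branches meet, was the steadiest of the 10 genes. It read 1365, 1138 and 1157 in WT, 1093, 1102 and 1080.3 in Cas9 and 1395, 1082 and 1233 in GCas9. The 3 Cas9 libraries lay just below the 3 WT libraries and the GCas9 libraries spanned both. Cas9 differed from WT by -0.15 ± 0.10 (limma adjusted p = 0.53) and GCas9 by 0.017 ± 0.10 (adjusted p = 0.97). In set B Tbk1 read 564, 570.3, 523 and 539.6 in GFP, 507, 539, 456 and 525.5 in Cas9 and 544, 448, 525 and 540.0 in GCas9. The highest library of a set was only 1.29 times the lowest in set A and 1.27 times in set B, against 17.7 and 4.99 times for Tlr2.

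Irf3 (chromosome 7, 44997648 to 45002848, plus strand) encodes the transcription factor that TBK1 phosphorylates. Its set A counts were 639, 626 and 584 in WT, 862, 665 and 679.7 in Cas9 and 608, 567 and 701 in GCas9. All Cas9 libraries were above all WT libraries, and the GCas9 libraries fell on both sides of WT. The difference from WT was 0.25 ± 0.11 for Cas9 (limma adjusted p = 0.43), which was 0.13 ± 0.09 without Cas9 replicate 1. For GCas9 it was 0.016 ± 0.11 (limma adjusted p = 0.98), which turned to -0.069 ± 0.12 without GCas9 replicate 3. In set B it read 124, 119.7, 106 and 132 in GFP, 151, 147, 138 and 157 in Cas9 and 139, 153, 123 and 140.2 in GCas9. Every Cas9 library was above every GFP library, and so were 3 of the 4 GCas9 libraries. Over all genes tested, 10.7% lay wholly above WT in Cas9 of set A and 2.63% wholly above GFP in Cas9 of set B. The share that did both was not counted. Cas9 was above GFP by 0.30 ± 0.11 (limma adjusted p = 0.78) and GCas9 by 0.20 ± 0.11 (adjusted p = 0.79), and without Cas9 replicate 1 the former was 0.29 ± 0.12. The 2 sets have different controls and different Cas9 libraries, so these values do not share libraries. All 6 oligodendrocyte markers also had positive differences in Cas9 against WT, with a median of 0.47, and in Cas9 against GFP, with a median of 0.13. Their sums overlapped with the control in set A (217124 to 360736, against 187404 to 225207 in WT) and in set B (106055 to 146145, against 103387 to 124036 in GFP). The sums of endothelial markers in Cas9 lay wholly above the control in both sets. They were 5746 to 6940, against 4744 to 5485 in WT, and 2377 to 2685, against 2152 to 2367 in GFP. The sums of astrocyte markers in Cas9 lay wholly above WT (93297 to 97623, against 81871 to 88083). In set B they overlapped with GFP (24722 to 27993, against 22416 to 27340). The part of any cell type in the Irf3 values was not tested.

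**Figure D2:**
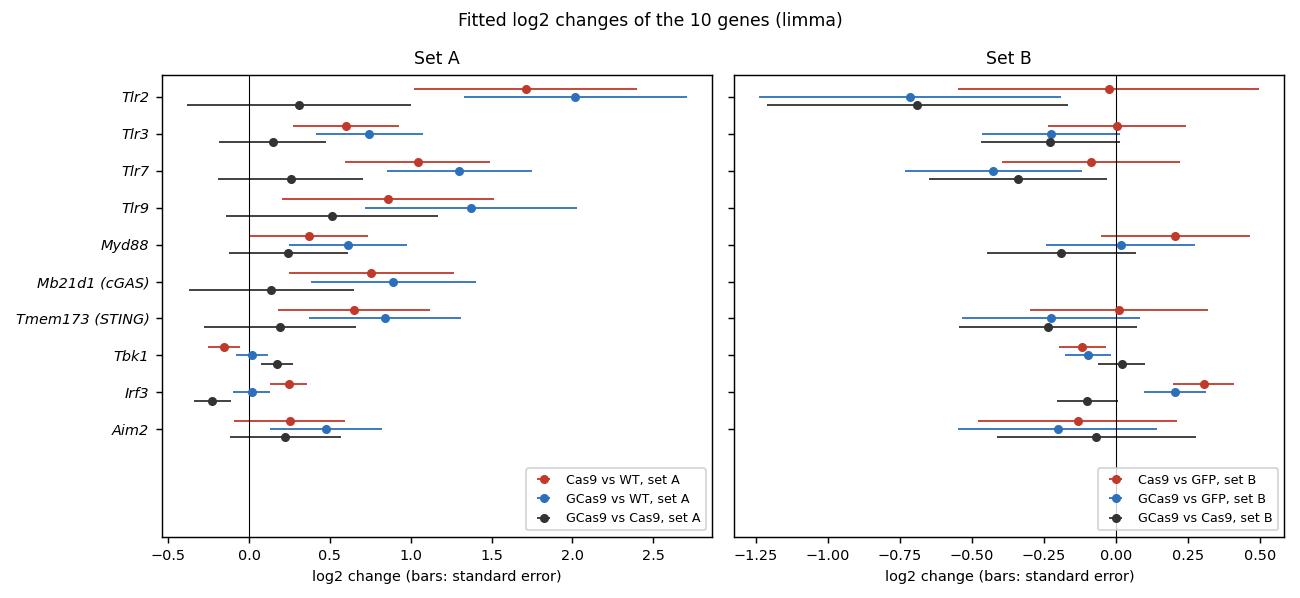
Fitted log2 differences (horizontal) with standard errors (bars) for the 10 genes (vertical), in set A on the left and set B on the right, on axes of different length; the colours are the 3 pairwise comparisons of a set. The differences from WT run from -0.15 for Tbk1 to 2.02 for Tlr2, while in set B those from GFP run from -0.72 for Tlr2 to 0.30 for Irf3, with Tlr9 and Mb21d1 not fitted.

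Taken by counts, 9 of the 10 genes had a positive difference in Cas9 against WT, beside 49.1% of all genes, and all 10 in GCas9 against WT, beside 49.9%. Their median log2 differences were 0.63 and 0.79, where the median over all genes tested was 0.00 in both. With both nucleases together 9 of 10 were positive, beside 49.3% of all genes, with a median of 0.71. Without GCas9 replicate 3, 9 of 10 were positive in GCas9 against WT, with a median of 0.24, and 9 of 10 in both nucleases together, with a median of 0.43. With any other 1 library of set A left out, the median was 0.46 to 0.76 in Cas9, 0.64 to 1.06 in GCas9, with 8 to 10 genes positive, and 0.54 to 0.84 in both together. In Cas9 against WT, 5 genes lay wholly above WT (Tlr2, Tlr3, Tlr7, Tmem173, Irf3) and 1 wholly below (Tbk1), beside 10.7% and 8.86% of all genes. In GCas9 against WT, 5 lay wholly above (Tlr2, Tlr3, Tlr7, Tlr9, Tmem173), beside 9.16% of all genes. In both nucleases together, 4 lay wholly above (Tlr2, Tlr3, Tlr7, Tmem173), beside 5.12%. At an unadjusted p under 0.05, limma counted 2 genes in Cas9 against WT, beside 11.8% of all genes, 2 in GCas9 against WT, beside 6.77%, and 3 in both nucleases together, beside 10.4%. Without Cas9 replicate 1 the first count was 0, beside 963 of all 15924 genes. Without GCas9 replicate 3 the third was 5, beside 1477 of all 15924 genes. Of these 5, DESeq2 called 2 (Tlr2 and Tlr7) past the adjusted threshold, beside 261 of all 15924 genes. The 3 comparisons share the WT libraries.

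In set B the counts differed. Against GFP, 4 of the 8 genes tested were higher and 4 lower in Cas9, where 48.7% of all genes were higher. In GCas9, 2 were higher and 6 lower, where 49.1% of all genes were higher, and with both nucleases together also 2 and 6, where 47.7% were. The medians were -0.01 for Cas9 and -0.21 for GCas9, beside 0.00 over all genes in both. Leaving out 1 library at a time, the median for Cas9 ranged from -0.18 to 0.16, with 1 to 6 of the 8 genes higher, and that for GCas9 from -0.44 to -0.098, with 1 to 3 higher. The lowest of both came without GFP replicate 4, and 6 of the 8 were higher in Cas9 without Cas9 replicate 1, with a median of 0.10. Irf3 alone lay wholly above GFP in Cas9, beside 2.63% of all genes. In GCas9 against GFP none of the 8 was without overlap, beside 4.16% of all genes, and in both nucleases together none, beside 0.856%. At an unadjusted p under 0.05, limma counted 1 gene (Irf3) in Cas9 against GFP, beside 6.24% of all genes, 1 (Irf3) in both nucleases together, beside 7.23%, and none in GCas9 against GFP, beside 6.48%.

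GCas9 and Cas9 were also compared directly, which is the comparison free of the WT and GFP controls. In set A, 9 of the 10 genes had a higher fitted level in GCas9, beside 54.3% of all genes, with a median of 0.21, and none was without overlap, beside 8.84% of all genes. Tlr9 had the largest difference, 0.51 ± 0.65 (limma adjusted p = 0.96), followed by Tlr2 with 0.31 ± 0.69 (adjusted p = 0.97). GCas9 replicate 3 decided this direction. Without it the difference was -0.64 ± 0.32 for Tlr2, -0.29 ± 0.18 for Tlr3, -0.33 ± 0.25 for Tlr7 and -0.34 ± 0.37 for Tlr9. It also turned to -0.25 ± 0.19 for Myd88, -0.21 ± 0.53 for Mb21d1, -0.47 ± 0.18 for Tmem173 and -0.16 ± 0.27 for Aim2, and stayed at 0.17 ± 0.12 for Tbk1, while Irf3, already at -0.23 ± 0.11, came to -0.31 ± 0.12. The median was -0.30 without it and 0.033 to 0.54 without any other 1 library, the lowest of these without Cas9 replicate 2. Without Cas9 replicate 1 the difference of Irf3 was -0.11 ± 0.09, that of Tlr3 0.33 ± 0.36 instead of 0.15 ± 0.33, and those of Tlr2, Mb21d1 and Aim2 were 0.48, 0.21 and 0.34.

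In set B, 7 of the 8 genes tested were lower in GCas9 than in Cas9, beside 49.4% of all genes, with a median of -0.21 and none without overlap, beside 2.02% of all genes. Tlr2 differed most, by -0.69 ± 0.52 (limma adjusted p = 0.99), and Tlr7 by -0.34 ± 0.31. In GCas9 against Cas9 no gene of the 10 had an unadjusted p under 0.05 with limma in either set, beside 5.45% of all genes in set A and 3.84% in set B. The difference between the sets in this comparison, B minus A, was -0.998 ± 0.92 for Tlr2, -0.60 ± 0.55 for Tlr7 and 0.13 ± 0.15 for Irf3, and the limma adjusted p was 0.997 for all 8 genes. Over the 14486 genes tested for that difference, 0% were called. It was not refitted without GCas9 replicate 3 of set A. Without that library, GCas9 against Cas9 in set A was -0.64 for Tlr2, -0.33 for Tlr7 and -0.31 for Irf3. In set B, with all libraries, the values were -0.69, -0.34 and -0.10.

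**Figure D3:**
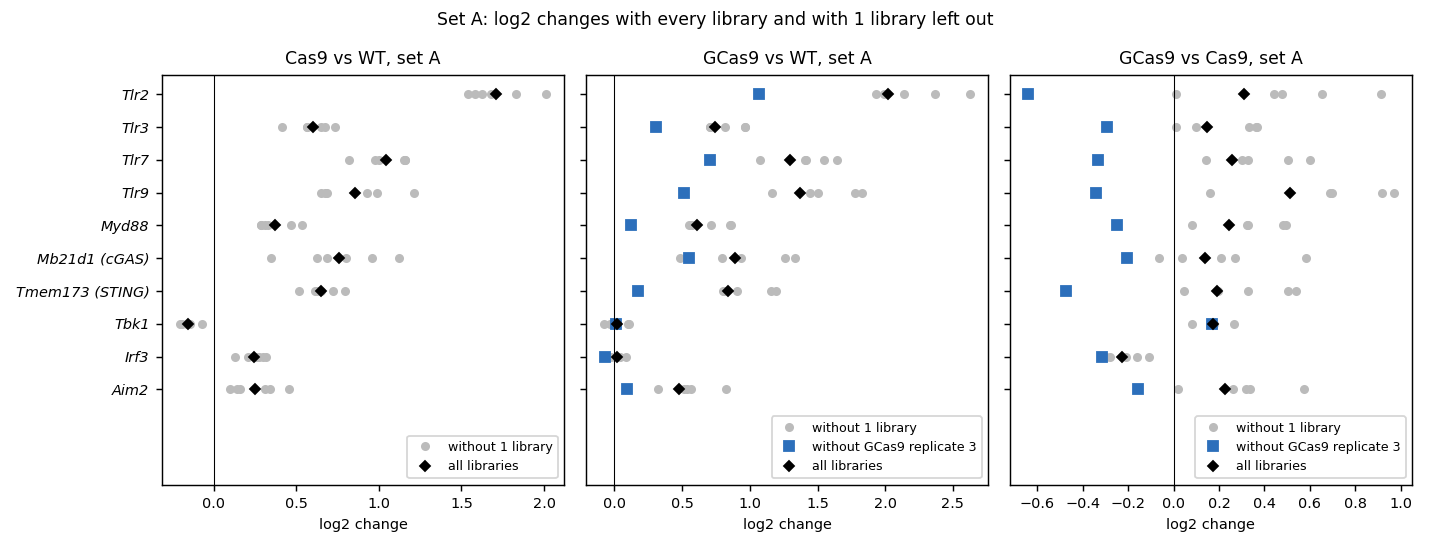
Fitted log2 differences in set A (horizontal) for the 10 genes (vertical) with all libraries (diamonds) and with 1 library left out (grey points), for 3 comparisons on axes of different length; squares mark the fit without GCas9 replicate 3. In GCas9 against Cas9 the squares lie below 0 for every gene but Tbk1 (0.17), for example at -0.64 for Tlr2 and -0.47 for Tmem173.

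Levels were set against each other per kilobase of annotated exon (GENCODE M21). In WT, Tbk1 was highest with 312 ± 32.2 normalized counts per kilobase (SD, n = 3), followed by Irf3 with 179 ± 8.30. Below them came Tlr3 with 51.5 ± 4.61, Myd88 with 44.1 ± 5.49, Tmem173 with 37.1 ± 3.14 and Aim2 with 36.0 ± 6.26, and each of these overlapped with its neighbour in the order. Tlr7 with 11.3 ± 2.85, Tlr2 with 9.74 ± 1.51 and Tlr9 with 9.12 ± 2.19 likewise overlapped, and Mb21d1 was lowest with 3.46 ± 1.85. In WT the kinase and the factor at the end of the pathway had more reads per kilobase than any receptor or sensor. In the GFP libraries of set B Tbk1 was again highest with 140.5 ± 5.59 (SD, n = 4), while Tmem173, Myd88, Tlr2, Tlr3 and Irf3 overlapped between 35.0 and 43.1 and Tlr9 was lowest with 0.956 ± 0.543.

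The partners of these genes were taken as 7 lists of 104 genes in all, of which 96 were tested in set A and 88 in set B. Not one of them passed the adjusted threshold with limma or edgeR in any comparison. Against WT, DESeq2 called 1 of the 96 in Cas9 (Ifi204), beside 0.728% of all genes. It called 8 in GCas9, beside 1.37%, and 6 with both nucleases together, beside 1.78%, and every gene called was higher. The 6 were Irf7, Ifi204, Zbp1, Casp1, Oas1a and Oas2, and GCas9 alone added Oas1b and Ifit3. Without GCas9 replicate 3 it called 1 in GCas9 (Cxcl10), beside 0.151% of all genes, and 16 with both together, beside 1.64%. Against GFP with both together it called 0 of 88, beside 0.266% of all genes there. With both nucleases together against WT, 84 of 96 were higher and 12 lower with a median of 0.64, and 36 lay wholly above WT and none below, beside 5.12% and 3.23% of all genes. There 34 had an unadjusted p under 0.05 with limma, beside 10.4% of all genes. Leaving out GCas9 replicate 3 gave a median of 0.40, with 84 of 96 higher, 36 wholly above WT and 1 below. With fewer libraries, ranges part more easily for every gene, so these counts cannot be set against the 5.12% and 3.23%. Without Cas9 replicate 1 the count at an unadjusted p under 0.05 fell to 19, beside 1356 of all 15924 genes. With both nucleases together against GFP, 23 of 88 were higher and 65 lower with a median of -0.17. None lay wholly apart, beside 0.856% of all genes, and 3 had an unadjusted p under 0.05 with limma, beside 7.23% of all genes. Trex1 and Ifna4 were listed at 0 in every library. The genes named next are those with the 3 smallest p in their list, in both nucleases together against the control of either set.

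Of the 12 other Toll-like receptors and co-receptors, 10 were tested in set A, with 9 higher and 1 lower and a median of 0.96. Tlr4, the receptor for bacterial lipopolysaccharide, read 14.4, 12.1 and 23.7 in WT, 35.4, 27.6 and 44.5 in Cas9 and 30.7, 28.1 and 53.2 in GCas9, a difference of 1.09 ± 0.31 for both together (limma adjusted p = 0.43). Tlr13, a receptor for bacterial ribosomal RNA, had 0.94 ± 0.28 and the co-receptor Cd14 0.63 ± 0.19. Each of the 3 lay wholly above WT. Against GFP they overlapped, with -0.19 ± 0.30, -0.45 ± 0.27 and 0.05 ± 0.24.

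Of 16 adaptors and kinases of the Toll-like receptors, 12 were higher and 4 lower with a median of 0.14. Irf7, the interferon factor that is itself induced by interferon, read 44.3, 32.8 and 22.7 in WT, 341, 56.2 and 254 in Cas9 and 199, 35.7 and 3380.4 in GCas9, so that GCas9 replicate 2 lay within the WT range. In set B Irf7 was 805 to 1127 in GFP replicates 1 to 3, Cas9 replicates 2 and 3 and GCas9 replicate 2, and 46.2 to 249 in the other 6 libraries. Those are also the libraries in which Tlr2 was 102 to 167 and 33.5 to 59.8. Irak1 and Traf3, a kinase and a ubiquitin ligase of these receptors, differed from WT by 0.13 ± 0.06 and 0.15 ± 0.07. Of the 16 partners of TBK1 and NF-kB, 14 were higher and 2 lower with a median of 0.18. Ikbke, the kinase closest to TBK1, read 70.3, 48.3 and 74.2 in WT, 149, 70.0 and 127 in Cas9 and 109, 91.8 and 270.3 in GCas9, a difference of 0.96 ± 0.37 (limma adjusted p = 0.45) and of -0.46 ± 0.46 against GFP. Its GCas9 libraries lay wholly above WT, and Cas9 replicate 2 lay within the WT range. Ikbkg, the regulatory subunit of the NF-kB kinase, differed from WT by -0.032 ± 0.044 and from GFP by -0.20 ± 0.07, and its Cas9 libraries of set B (432 to 476) lay wholly below GFP (493.2 to 606). Nfkb1, an NF-kB subunit, read 516, 524 and 527 in WT, 701, 569 and 622 in Cas9 and 605, 533 and 848 in GCas9.

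Of 19 tested genes of cytosolic DNA sensing and clearance, 16 were higher and 3 lower with a median of 0.56. Ifi204, a DNA-binding protein of the AIM2 family, read 3.85, 2.59 and 2.97 in WT, 74.9, 9.86 and 64.7 in Cas9 and 64.2, 17.3 and 496 in GCas9, or 3.78 ± 0.98 for both together (limma adjusted p = 0.41). Mnda, of the same family, was listed at 0 in all 3 WT libraries and at 0.986 to 162 in the nuclease libraries. Dnase2a, the lysosomal nuclease that degrades DNA, differed by 0.56 ± 0.17. All 7 tested inflammasome partners of AIM2 were higher, with a median of 0.97. Casp1, the protease of the inflammasome, read 13.5, 10.3 and 9.89 in WT, 49.9, 15.8 and 57.7 in Cas9 and 36.4, 22.7 and 163 in GCas9, and Gsdmd, the pore protein it cleaves, differed by 1.12 ± 0.41. Casp4, the caspase that senses lipopolysaccharide in the cytosol, differed by 2.20 ± 0.77 from WT and by -0.90 ± 0.59 from GFP.

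Of 15 RNA sensors, 13 were higher and 2 lower than WT with a median of 1.54, and all 15 were lower than GFP in set B, with a median of -0.44. Oas1a, an interferon-induced synthetase that RNA duplexes activate, read 3.85, 15.5 and 1.98 in WT, 47.8, 10.8 and 43.5 in Cas9 and 37.4, 18.4 and 473 in GCas9. Oas3, of the same family, read 0.962, 0 and 0 in WT, 31.2, 2.96 and 15.2 in Cas9 and 14.4, 2.16 and 435 in GCas9, and differed from GFP by -1.38 ± 1.09. Adar, which deaminates RNA duplexes, differed by -0.05 ± 0.08 from WT and by -0.26 ± 0.09 from GFP (limma adjusted p = 0.64). All 13 tested transcripts induced downstream were higher than WT, with a median of 1.86. Cxcl10, a chemokine that attracts T cells, read 1.92, 0.862 and 2.97 in WT, 158, 13.8 and 157 in Cas9 and 69.0, 29.2 and 2449 in GCas9, a difference of 5.32 ± 1.33 (limma adjusted p = 0.41), and -0.79 ± 0.95 against GFP. The chemokine Ccl5 differed by 4.11 ± 1.37 from WT and -0.54 ± 0.90 from GFP, and the interferon receptor chain Ifnar2 by 0.41 ± 0.15 and 0.13 ± 0.13.

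**Figure D4:**
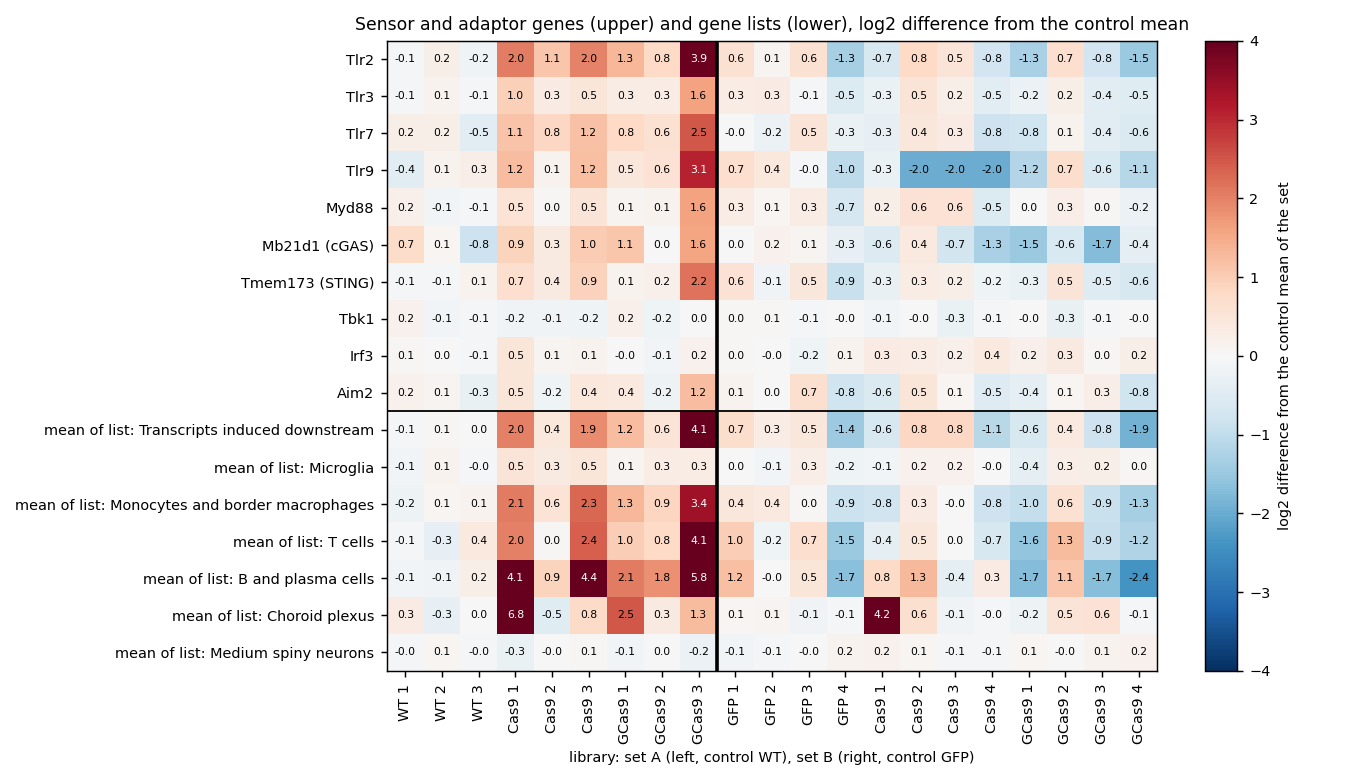
Log2 difference of each library (columns) from the control mean of its set (WT in set A, left of the black line; GFP in set B, right) for the 10 genes (upper rows) and for the mean log2 value of marker and pathway lists (lower rows); the colour scale ends at 4 in either direction and the printed values go beyond it. GCas9 replicate 3 of set A is highest for Tlr2 (3.9) and for B and plasma cell markers (5.8), and medium spiny neuron markers stay between -0.3 and 0.2.

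Markers of immune cells were higher in the same libraries. With both nucleases together against WT, all 10 microglia markers were higher with a median of 0.32, as were all 7 tested markers of monocytes and border macrophages with a median of 2.71 and all 8 markers of B and plasma cells with a median of 2.86. Of 8 T cell markers 7 were higher, with a median of 1.63. Without GCas9 replicate 3 these medians were 0.31, 1.904, 2.22 and 0.97, with 7 T cell markers still higher. Summed normalized counts of microglia markers were 8955 to 10420.2 in WT, 11262 to 14005 in Cas9 and 10005 to 15184 in GCas9. Those of monocytes and border macrophages were 71.2 to 112, 159.7 to 392.5 and 143 to 1652, and those of B and plasma cells 487 to 635, 1092 to 16568 and 1924 to 45675. No marker of any list passed the threshold with limma or edgeR in these comparisons, DESeq2 called 10 of the 73 tested (Ccr2, Ms4a7, Itgax, Ms4a1, Cd79a, Ighm, Igkc, Igj, Mzb1, Aqp4) with both nucleases together against WT, beside 1.78% of all genes, and their part in the levels of the 10 genes was not tested. Of 8 neutrophil markers, 7 had a mean below 10 in both sets, and Ly6g was at 0 in every library.

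In set B the lists were not all higher with a nuclease. The microglia sum was 6229 to 9291 in GFP, 6337 to 8234 in Cas9 and 5326 to 8413 in GCas9, and that of monocytes and border macrophages 170.2 to 621, 149.8 to 417 and 149.7 to 536. For B and plasma cells it was 1834 to 15122, 3652 to 10842 and 773 to 19140.1. Of the 10 microglia markers 5 were higher and 5 lower than GFP in Cas9 and likewise in GCas9. For monocytes and border macrophages the median was 0.07 in Cas9 and -0.66 in GCas9, with 3 of 6 higher in either. Of the 8 B and plasma cell markers, 5 were higher than GFP in Cas9, with a median of 0.35, and all 8 were lower in GCas9, with a median of -1.17. In GCas9 against Cas9 all 8 were lower, with a median of -1.68 and 4 of them at an unadjusted p under 0.05, beside 3.84% of all genes. None had libraries wholly apart, beside 2.02% of all genes.

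For the 5 genes with a mean of at least 10 in both sets and a spread of at least 0.5 log2 units in set A, the genes of most similar pattern were sought by the root mean square difference of log2 values centred within each set over the 21 libraries. Tlr2 lay nearest to Gpr84 (0.24), H2-M3 (0.25) and Ptprc (0.25), where the median candidate differed by 1.04. Tlr3 lay nearest to Vcam1 (0.13), Dock8 (0.18) and Abi3 (0.19), and Tlr7 to Rab32 (0.22), Lyn (0.24) and C1qb (0.24). Myd88 lay nearest to Ctsz (0.19), Psme2 (0.20) and Tmem119 (0.20), and Tmem173 to Msn (0.15), Il4ra (0.18) and Grn (0.19). These are descriptions over libraries that share tissue and handling, and they carry no test.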

How the data were processed

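RNA was measured in 21 libraries of mouse striatum. The deposited table holds 1 signal per gene symbol and library, a normalized count, that is, the gene's reads over the size factor that the authors gave to the library. Per the submitters' processing notes, STAR 2.5.2b, SAMtools, HTSeq, DESeq2, R 3.3.3 and the build GRCm38.p3 were used, with no roles stated. The counting by strand and the annotation are not given in the sources used here. Per the labels' protocols, a SMARTer kit gave the cDNA and Nextera XT the libraries, a method with amplification, so reads are not independent molecules and counting error understates the error of a value. Divided by a library's smallest step, the deposited values were whole numbers to within 0.001 reads (100.0% of values), so whole reads were recovered, 20.34 to 28.05 M for a set A library and 6.09 to 11.07 M for one of set B.

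Values were taken as log2(normalized count + 1), so differences of low genes are understated, and fitted with limma 3.58.1 in R 4.3.3 (trended moderated variance, two-sided), each set apart with its 3 groups. Tested were genes whose mean normalized count in the set reached 10. P-values were adjusted by Benjamini-Hochberg over all genes tested, and an adjusted p under 0.05 passed. The procedure was tested on simulated data with the same relative spread for every gene and no library that stood apart. That test does not cover the wider spread between libraries seen here. The alternatives were pseudocounts of 0.5 and 5, other filters, edgeR 4.0.16 and DESeq2 1.42.0 on the recovered reads, 2 other scalings, fits of only the groups compared, a replicate block and leaving out each library, and, chosen after seeing the data, DESeq2 and the lists without the libraries that stood apart.

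The 10 genes, the 7 pathway lists and the 11 marker lists were chosen with earlier results of these data known. All 10 genes are named. Of each pathway list, up to 3 genes of smallest p in the comparison of both nucleases together with the control of either set and a mean of at least 10 were eligible to be named, and most are. The similar genes were the 3 nearest of each gene among genes with a mean of at least 50 in both sets. Gene positions are from GENCODE M21 on GRCm38, and promoters from RefSeq on GRCm38.p6, in which 8 of the 10 genes were used. The position and promoter of Tmem173 and the promoter of Tlr7 are not reported here.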

Additional observations from a re-analysis of the deposited data

Results flagged for a closer look

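Among the 30 groups of 4 libraries checked in set B for a library far from the others, 1 stood out, where chance alone marks about 5% of such groups. Tlr9 in Cas9 replicate 1 of set B had a normalized count of 2.26, while the other 3 Cas9 libraries of that set were at 0. The value rests on 2 reads. With the other 3 libraries at 0, any read at all would have been flagged, so the 5% does not apply to this group. The same library carried choroid plexus transcripts (summed normalized count 10980.4), and whether the Tlr9 reads came with them was not tested.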

How the results depend on the processing

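Of 1314 recomputed differences of the 10 genes, 1256 kept their direction and their side of the threshold. Those for which DESeq2 gave no adjusted p were counted as not passing it. In GCas9 against WT, DESeq2 brought Tlr2 past it (2.72), and likewise in both nucleases together (2.26). With DESeq2 without GCas9 replicate 3, chosen after seeing the data, 24 genes were called in GCas9 against WT and 261 in both together, with Tlr2 (1.45) and Tlr7 (0.86) among the latter, and Irf3 in GCas9 turned to -0.071. Apart from leaving out libraries, the sign turned for Irf3 in GCas9 against WT under quantile normalization (-0.019), Tmem173 in Cas9 against GFP with edgeR (-0.072) and DESeq2 (-0.071), Myd88 in GCas9 against GFP with edgeR (-0.021) and DESeq2 (-0.025), and Aim2 in GCas9 against Cas9 of set B under quantile normalization (0.0041). The number of genes called over the whole table in Cas9 against WT was 0 with a pseudocount of 5 and with edgeR, 116 with DESeq2 and 4 with only the groups compared. DESeq2 called 218 in GCas9 against WT, 283 in both nucleases against WT, 4 in GCas9 against Cas9 of set A, 14 in Cas9 against GFP, and 41 each in GCas9 against GFP and in both against GFP. With only the groups compared, GCas9 against GFP gave 7, and both against GFP gave 3 without the low-value filter and 3 under quantile normalization. The cause was not tested.

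Leaving out 1 library at a time, the count ranged from 0 to 7 in Cas9 against WT (7 without Cas9 replicate 2), 0 to 2 in GCas9 against WT, 0 to 3 in both against WT, 0 to 1 in GCas9 against Cas9 of set A, 0 to 2 in Cas9 against GFP, 0 to 3 in GCas9 against GFP and 0 to 10 in both against GFP (10 without Cas9 replicate 3). The Gpnmb call in Cas9 against WT was lost without any 1 WT library and without Cas9 replicate 1 or 3. In GCas9 against Cas9 of set A the differences ranged from -0.64 to 0.91 for Tlr2, -0.29 to 0.37 for Tlr3, -0.33 to 0.60 for Tlr7, -0.34 to 0.97 for Tlr9, -0.25 to 0.50 for Myd88, -0.21 to 0.58 for Mb21d1, -0.47 to 0.54 for Tmem173 and -0.16 to 0.57 for Aim2. The lowest value of each came without GCas9 replicate 3, and Mb21d1 was also below 0 without Cas9 replicate 2 (-0.067). Against WT, Tbk1 ranged from -0.074 to 0.11 and Irf3 from -0.069 to 0.084 in GCas9, and Tbk1 from -0.12 to 0.014 in both nucleases. In Cas9 against GFP the ranges were -0.47 to 0.22 for Tlr2, -0.18 to 0.16 for Tlr3, -0.27 to 0.16 for Tlr7, -0.017 to 0.46 for Myd88, -0.28 to 0.20 for Tmem173 and -0.40 to 0.084 for Aim2. In GCas9 against GFP they were -0.21 to 0.12 for Myd88 and -0.47 to 0.014 for Aim2. In both nucleases against GFP they were -0.29 to 0.0012 for Tlr3, -0.11 to 0.24 for Myd88, -0.40 to 0.081 for Tmem173 and -0.43 to 0.049 for Aim2, and in GCas9 against Cas9 of set B -0.031 to 0.084 for Tbk1 and -0.23 to 0.14 for Aim2.

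The libraries share replicate numbers between groups. Deviations of same-numbered libraries from their group means correlated at -0.02 to 0.64 in set A (6 of 9 pairs over 0.1) and at -0.13 to 0.46 in set B (7 of 12). For libraries of different number it was -0.60 to 0.24 (4 of 18) and -0.38 to 0.32 (6 of 36). The medians were 0.20 against -0.13 in set A and 0.12 against -0.05 in set B, higher for same-numbered pairs. The main fits used no pairing, and whether the numbers mark one was not settled. Of the libraries, 7 of 9 in set A and 8 of 12 in set B correlated best with one of their own number. With a replicate block, 2 genes were called in Cas9 against WT, 2 in GCas9 against WT, 6 in both against WT, 5 in GCas9 against GFP and 4 in both against GFP, and no difference of the 10 genes changed its sign or its side of the threshold. Tlr9 and Mb21d1 had few reads in set B (0 to 14 a library), which limits the precision of their differences there.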
